A study of Mus musculus with 7 samples.

Results

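The comparison described here sets a small interfering RNA (siRNA) against Ep300 beside a control siRNA in mouse embryonic fibroblasts (MEFs) that were being turned towards cardiac muscle. Its members were chosen by the sample titles and are 2 of the 7 arrays of the series, compared over all 19505 named genes of the array. In these cells, retroviruses carried Gata4, Tbx5 and a form of Mef2c, and the siRNA was given as well. The arrays are called siEp300 and siCtrl, and each is 1 sample on 1 Affymetrix Clariom S array for mouse, which reads the transcripts of annotated genes in 1 colour. The labels disagree on the form of Mef2c in both: their titles give isoform 2 (GT/M2), while their source names and characteristics give isoform 2 fused to the activating domain of MyoD (GT/M2TAD). Both labels give the same form to siEp300 and siCtrl, so the siRNA is the labelled difference between them.

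The other 5 arrays were set beside the pair. GT/M1, GT/M2 and GT/M6 received Gata4, Tbx5 and Mef2c isoform 1, 2 or 6, and are called the isoform arrays. GT/M2TAD received the fusion in place of the isoform, and MEF is untreated fibroblasts. Transduced cells were kept for 1 week, with new medium 24 h after infection, and the harvest time of MEF was not given in the labels. Of the 7 arrays, none is labelled as virus without the factors or as siRNA without the factors. The RNA integrity number was above 7, and 100 ng of RNA was labelled. Every group is 1 array, so no difference below has a replicate check, an error or a p-value, and sizes alone are given. These are bulk samples, in which fewer cells of a type and less RNA per cell cannot be told apart.

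Ep300 encodes p300, a lysine acetyltransferase that is brought to enhancers and promoters by DNA-binding transcription factors, acetylates histones there and helps to recruit the transcription machinery. Its close relative CBP, encoded by Crebbp, shares most of its domains and many of its partners. MEF2, GATA4 and MyoD proteins are among the factors known to bind p300, and p300 is needed for heart development. The interferon-activated factor STAT2 is also known to use p300 and CBP as coactivators.

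All signals are log2 values. Background was set on each array at the 95th percentile of its 5222 negative-control probes, which was 8.52 on siEp300 and 8.43 on siCtrl and ran from 8.43 to 9.33 over the 7 arrays. On siEp300 29.6% of genes lay above it, and on siCtrl 28.6% did. A total of 5433 genes lay above background on both siRNA arrays. A gene is called higher or lower here when it was at least 2-fold apart and above background on the array where it was higher. The siRNA arrays were close to each other: 123 genes were called, which ranked 2 among the 21 pairs of arrays from the closest, after the 73 of GT/M1 and GT/M6. The width of their differences, an interquartile range of 0.61, ranked 6. One feature of siCtrl stood apart. Of the 23 background sets on the array, 10 held the same value on siCtrl as on MEF, and 0 were shared between siCtrl and any other array.

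Ep300 itself was lower on siEp300 by a modest amount. Its signal was 9.47 on siEp300 and 9.90 on siCtrl (difference -0.43, or 1.34-fold). Without siRNA, GT/M6 gave 10.22, GT/M2TAD 9.98, GT/M1 9.96, GT/M2 9.90 and MEF 9.87. The siEp300 value was thus the lowest of the 7, and the siCtrl value lay among the other 5. The difference stood at percentile 11.7 of all named genes and at percentile 4.09 of the 5433 genes above background on both arrays, so many genes that were not targeted were further apart. It became -0.57 after the median of all genes was subtracted. Which part of the transcript the probes read, relative to the siRNA's target, was not known. Crebbp was at 13.18 on both arrays.

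Of the transduced factors above background, Mef2c differed between the arrays and Tbx5 hardly did. The Mef2c signal was 18.32 on siEp300 and 18.87 on siCtrl (difference -0.55). GT/M2 gave 18.82, GT/M6 18.69, GT/M2TAD 18.64, GT/M1 18.50 and MEF 8.24. The siEp300 value was therefore the lowest of the 6 transduced arrays and the siCtrl value the highest. Tbx5 gave 14.82 on siEp300 and 14.83 on siCtrl, against 16.14 to 16.23 on the transduced arrays without siRNA and 5.72 on MEF. Both siRNA arrays were low in Tbx5 to the same degree. Gata4 stayed under background on all 7 arrays, at 4.13 on siEp300 and 3.57 on siCtrl (difference 0.56). Myod1, part of which is fused to Mef2c in GT/M2TAD, was at 3.43 and 3.39, also under background. Whether the probes of both genes read the viral transcripts was not known. The Mef2c and Ep300 signals both differed between the arrays. The values do not separate viral from endogenous Mef2c transcripts, and the part of the Mef2c difference in the results below was not tested.

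Far more genes were higher than lower on siEp300. At 2-fold, 117 genes were called higher, 0.6% of those tested, and 6 were called lower, 0.0308%. At 1.5-fold, 829 genes were higher, 4.25%, and 108 were lower, 0.554%. The whole distribution was shifted the same way. The median difference of all named genes was 0.14, with an interquartile range from -0.16 to 0.45, and 62.4% of genes had a positive difference. Among genes above background on both arrays the median was 0.16 and 68.3% were positive. Genes above background on neither array had a median of 0.12, the negative-control probes 0.09 and the positive-control probes 0.16.

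The excess of higher genes depends on how that shift is treated. After the median difference of all genes was subtracted from each difference, 55 genes were higher and 15 lower. Centring on the genes above background gave 50 and 16, a level-dependent centring 37 and 20, and quantile normalization 33 and 19. The higher share of the called genes went from 95.1% to 78.6%, 75.8%, 64.9% and 63.5% in that order. All 6 genes called lower stayed so under each of these scalings. Removing a positive shift makes differences lower, so this is no check of those calls. Without the background rule, 7.03% of genes above background on neither array were at least 2-fold apart, 13.1% of those above it on 1 array and 1.07% of those above it on both.

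**Figure D1:**
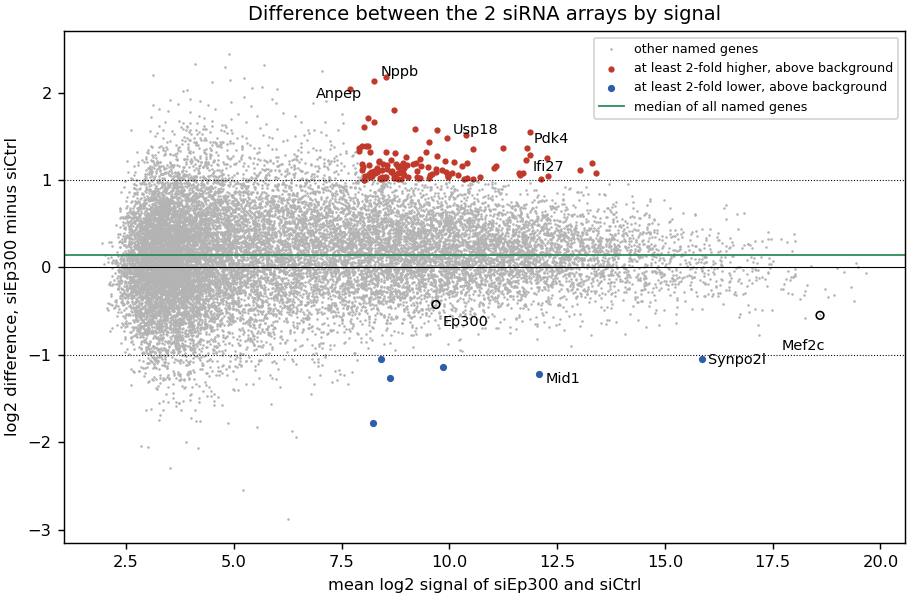
Each point is 1 of 19505 named genes, with its mean log2 signal on siEp300 and siCtrl on the horizontal axis and the log2 difference, siEp300 minus siCtrl, on the vertical axis. The 117 genes called higher (red) outnumber the 6 called lower (blue), dotted lines mark 2-fold, and the green line is the median of all genes at 0.14; Ep300 and Mef2c are circled.

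The genes called higher were set beside the transduced arrays without siRNA. In 88 of the 117, or 75.2%, siCtrl lay below GT/M2TAD and all the isoform arrays, against 41.6% of the genes above background on both arrays. In 55 of the 117, or 47.0%, siEp300 lay above those 4 arrays, against 34.3%. For 37 of them, or 31.6%, siCtrl lay below the 4 while siEp300 lay within their range, against 12.3%. The 117 were chosen for siCtrl lying well under siEp300, which by itself raises all 3 shares. They are a description of where each array stood, and they compare arrays that also differ in siRNA treatment as such. All 6 genes called lower were above the 4 arrays on siCtrl, and 4 of the 6 were above them on siEp300 as well.

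The 15 genes with the highest differences, predicted genes left out, included secreted and cell-surface proteins. Igfbp3, Rpl32l, Usp18 and Timm17b were above background on both arrays. In the others siCtrl lay under its background of 8.43, so the sizes of their differences are less certain. Among all 117 genes called higher, 55 were above background on both arrays. Rln3, the peptide hormone relaxin-3, had a signal of 9.63 on siEp300 and 7.45 on siCtrl, and 4.30 to 5.73 on the other 5 arrays, a difference of 2.17. Nppb, which encodes the natriuretic peptide BNP of stressed heart muscle, was 9.32 on siEp300 and 7.18 on siCtrl (difference 2.13). It was 9.25 on GT/M2TAD, 5.88 to 7.13 on the isoform arrays, and 3.39 on MEF, so siEp300 matched the highest array without siRNA. Anpep, the surface enzyme aminopeptidase N, was 8.72 against 6.68, a difference of 2.04. Both siRNA arrays lay under the 9.29 to 11.94 of the other transduced arrays, and siCtrl was near the 6.50 of MEF.

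Procr, the endothelial protein C receptor, was 9.62 on siEp300 and 7.83 on siCtrl (difference 1.79), above the 4.86 to 6.18 of the other 5 arrays. Igfbp3, which binds insulin-like growth factors, was 10.50 and 8.93 (difference 1.57), against 6.14 to 7.99 on the others. Both siRNA arrays were thus above all arrays without siRNA for Rln3, Procr and Igfbp3, and siEp300 was the higher of the pair. P3h3, a prolyl hydroxylase that modifies collagen, was 9.08 and 7.42, a difference of 1.67. Serpinb9, an inhibitor of granzyme B with near-identical neighbours, was 8.96 and 7.24, a difference of 1.71. Angptl4, an inhibitor of lipoprotein lipase, was 8.80 and 7.41 (difference 1.39), with both below the 9.55 to 10.89 of the transduced arrays without siRNA.

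In several of the 15, siCtrl lay below all 4 transduced arrays without siRNA. Uchl3, a ubiquitin hydrolase, was 10.00 on siEp300 and 8.42 on siCtrl (difference 1.58), and 9.59 to 10.44 on the transduced arrays without siRNA. Timm17b, a subunit of the translocase that imports proteins into mitochondria, was 10.24 and 8.81 (difference 1.43), against 9.92 to 10.31. Zfp24, a zinc finger transcription factor, was 8.76 and 7.36 (difference 1.39), against 8.69 to 8.96. Slc35b3, a Golgi transporter, was 8.67 and 7.28 (difference 1.39), against 8.26 to 9.02. Rps19bp1, which binds ribosomal protein S19, had a difference of 1.61, and Rpl32l, a near copy of a ribosomal protein gene whose probes may read its paralogs, 1.52. In Uchl3, Timm17b, Zfp24 and Slc35b3 siEp300 lay within the range of the transduced arrays without siRNA. MEF was at 7.35 in Slc35b3, near siCtrl, and at 8.69 to 10.32 in the other 3. Usp18 completes the 15 and is described with the interferon genes.

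The lowest differences were smaller in size. Genes at least 1.5-fold lower had a median genomic span of 44.6 kb, against 15.2 kb for those at least 1.5-fold higher. Heca was 7.99 on siEp300, under background, and 9.26 on siCtrl (difference -1.26). Mid1, a microtubule-associated ubiquitin ligase, was 11.46 and 12.68, a difference of -1.22, and Vps8, a subunit of an endosomal tethering complex, was 9.28 and 10.42, a difference of -1.15. Cdc42ep1, an effector of the Cdc42 GTPase, was 7.88, under background, and 8.93, a difference of -1.05. Synpo2l, an actin-binding protein of the muscle Z-disc, was 15.33 and 16.38, a difference of -1.05. Its level was 15.12 on GT/M2TAD, 9.50 to 12.70 on the isoform arrays and 5.35 on MEF. Both siRNA arrays were therefore at or above GT/M2TAD in Synpo2l, and siCtrl was the highest of all. The remaining gene called lower was the predicted gene Gm6654, at -1.78.

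Below 2-fold, the Notch ligand Jag1 was 9.82 on siEp300 and 10.77 on siCtrl (difference -0.96), with 12.92 on MEF and 7.96 to 9.68 on the transduced arrays without siRNA. Emx2, a homeobox factor, differed by -0.94. Ptprn, a protein of secretory granules, was 9.77 and 10.71 (difference -0.94), with 13.21 on MEF. Llgl2, a cell polarity protein, differed by -0.92, Pid1 by -0.91 and Thsd7a by -0.90. Rbbp5, a core subunit of histone methyltransferase complexes, was 9.53 and 10.41 (difference -0.88). Pcca, a subunit of propionyl-CoA carboxylase, differed by -0.88, the mitochondrial calcium-binding protein Efhd1 by -0.87 and the corepressor Runx1t1 by -0.85. On siEp300, Emx2, Llgl2, Pcca, Efhd1 and Runx1t1 were under background.

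**Figure D2:**
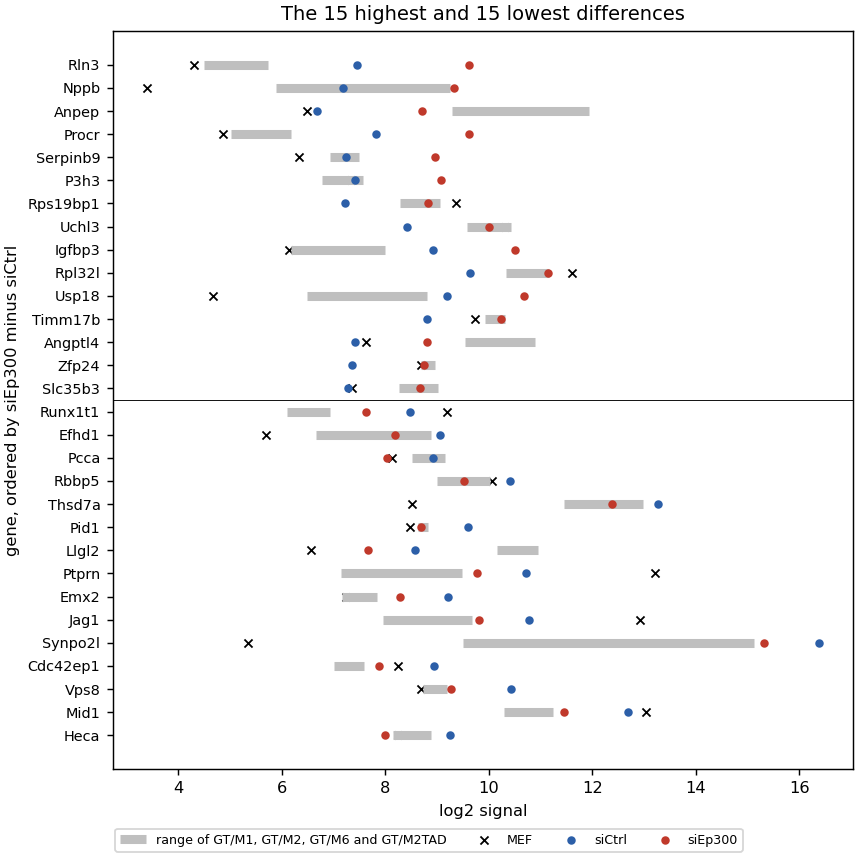
Log2 signals of the 15 genes with the highest and the 15 with the lowest differences, siEp300 minus siCtrl, each on its own line: siEp300 (red), siCtrl (blue), MEF (cross) and the range of the 4 transduced arrays without siRNA (grey bar). In Uchl3, Timm17b, Zfp24 and Slc35b3 the siEp300 point lies on the bar and the siCtrl point to its left, while Rln3, Procr and Igfbp3 have both points to the right of the bar.

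The difference between the siRNA arrays went with the length of the gene on the chromosome. Over the genes above background on both arrays, split into 8 classes of about equal number by genomic span, the median difference was 0.33 in the shortest class, up to 6.50 kb. It was then 0.26, 0.19, 0.19, 0.14, 0.11 and 0.06, and reached -0.01 in the longest class, from 110.5 kb. The share of genes with a positive difference went from 83.8% to 48.7% between the end classes. The genes called higher had a median span of 10.7 kb, against 27.9 kb for genes above background on both arrays and 17.8 kb for all named genes. Set against GT/M2TAD, which both comparisons share, siCtrl had medians of -0.22 in the shortest class and -0.02 in the longest, and siEp300 had 0.09 and 0.02. Against GT/M2, the form in the titles, both rose with span, siCtrl from -0.41 to 0.18 and siEp300 from -0.08 to 0.21. Slopes with span were also seen in pairs without siRNA: GT/M2 minus GT/M1 went from 0.20 to -0.04, and GT/M2TAD minus GT/M2 from -0.11 to 0.24. A smooth curve of the difference on span was fitted on the genes above background on at least 1 siRNA array. After it was subtracted from all genes, 33 genes were higher and 14 lower. Those 33 were among the 117, and so were those left by quantile normalization. The same subtraction moved the median of all named genes from 0.14 to -0.07 and that of genes above background on both arrays from 0.16 to -0.01. Medians after centring on span are given with the gene groups below, and the part of span in their differences was not tested.

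**Figure D3:**
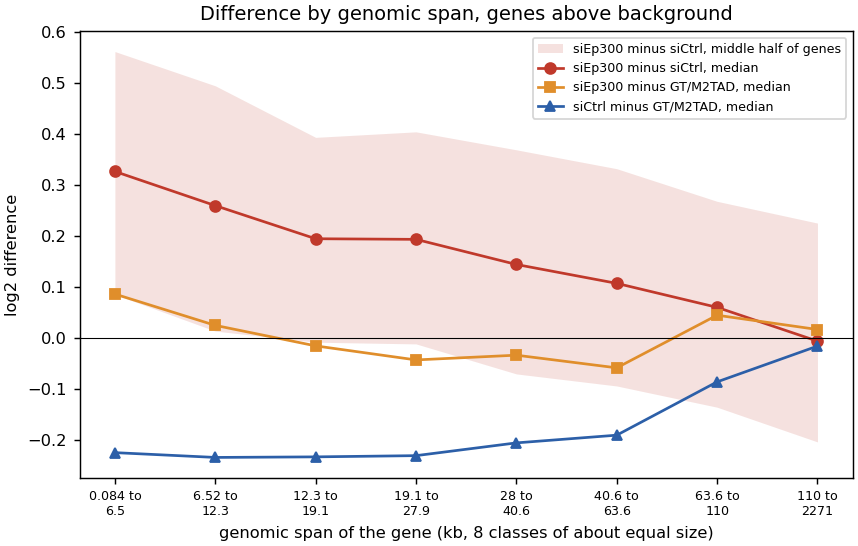
Median log2 difference in 8 classes of genomic span (kb, horizontal axis) over the 5433 genes above background on both siRNA arrays: siEp300 minus siCtrl (red, with the middle of the genes shaded), siEp300 minus GT/M2TAD (orange) and siCtrl minus GT/M2TAD (blue). The red line goes from 0.33 in the shortest class to -0.01 in the longest, and the blue line lies below 0 in all 8 classes.

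Interferon-stimulated genes had the highest median of the 33 gene lists. These genes encode antiviral proteins and parts of antigen presentation and are switched on when cells sense interferon. Of 52 measured members, 47 had a positive difference, and the median was 0.58, against 0.14 for all genes. A total of 4 were called higher and 0 lower, and 9 were at least 1.5-fold higher, beside the 0.6%, 0.0308% and 4.25% of all genes. Most members were weakly expressed: 11 lay above background on both arrays. Their median span was 12.4 kb, and after centring on span the list's median was 0.34.

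The called members were Usp18, Ifi27, H2-K1 and Xaf1. Usp18, which removes the ubiquitin-like protein ISG15 from its targets and dampens interferon signalling, was 10.68 on siEp300 and 9.20 on siCtrl (difference 1.48). Without siRNA it reached 8.80 on GT/M6, 7.93 on GT/M1, 7.50 on GT/M2TAD, 6.48 on GT/M2 and 4.68 on MEF. Ifi27 was 12.39 and 11.17, a difference of 1.23, above the 6.07 to 10.41 of the other 5 arrays. Xaf1, which promotes apoptosis, was 9.31 and 8.30, a difference of 1.01, with siCtrl under background. Usp18, Ifi27 and Xaf1 were thus above all arrays without siRNA on siCtrl, and higher again on siEp300. H2-K1, a class I antigen-presenting molecule whose probes may read related genes of its family, was 10.04 and 9.02, a difference of 1.02. The transduced arrays without siRNA were at 9.25 to 10.00, between the siRNA arrays.

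Members between 1.5-fold and 2-fold were Bst2 (tetherin), the membrane protein Ifitm3, the RNA sensor Ddx58 (RIG-I), the peptide transporter subunit Tap1 and the transcription factor Stat2. Bst2 was 9.21 on siEp300 and 8.32 on siCtrl (difference 0.89). Ifitm3 was 13.90 and 13.06, a difference of 0.84, against 12.13 to 12.34 on the transduced arrays without siRNA. Ddx58 differed by 0.71, Tap1 by 0.65 and Stat2 by 0.64. Stat2 was 9.12 on siEp300 and 8.48 on siCtrl, with 10.66 on GT/M6 and 9.97 on GT/M1, so its siEp300 level was not high among the arrays. Eif2ak2, the double-stranded RNA-activated kinase PKR, differed by 0.39, and B2m, the light chain of class I molecules, by 0.33.

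A further 7 members were at least 2-fold higher on siEp300 while under background on both arrays. Ifit1, which binds foreign RNA, was 6.85 on siEp300 and 4.54 on siCtrl (difference 2.31). Ifit3b differed by 1.77 and Ifit3 by 1.57, and these near-identical copies may share probes' transcripts. Igtp differed by 1.57, Rtp4 by 1.36, Isg15 by 1.27 and Oasl2 by 1.24. Because these signals lie under background, their sizes carry little weight one by one. Set against GT/M2TAD, which both share, the list's median was 0.94 on siEp300 and 0.39 on siCtrl. The median signal of the list was 6.83 on siEp300, 5.95 on siCtrl, 5.35 on GT/M2TAD, 6.77 on GT/M6 and 4.52 on MEF, so GT/M6, without siRNA, was nearly as high as siEp300.

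Promoters of interferon genes carry the interferon-stimulated response element, searched here as GAAANNGAA on both strands in the RefSeq promoter windows of GRCm38.p6, from 250 bases before to 50 after the gene's start. Entries on a single chromosome were left out of all promoter counts. Of the 40 interferon-stimulated genes with a promoter entry, 23 or 57.5% held the element, against 9.28% of the 15691 named genes with an entry. Among the 98 genes called higher that had an entry, 8 or 8.16% held it, near the share over all genes. Of the called members, the windows of Xaf1 and H2-K1 held no match, and Usp18 and Ifi27 had no entry. The promoters shown were picked because they hold matches, which are in capitals: Ifit1, the member with the largest difference but under background on both arrays, and Bst2, above background on siEp300. Matches that overlap each other run together. Ifit1 lies at chr19:34640639-34640938 on the plus strand and Bst2 at chr8:71537423-71537722 on the minus strand. A match is a description of the letters and not a measured site.
Ifit1: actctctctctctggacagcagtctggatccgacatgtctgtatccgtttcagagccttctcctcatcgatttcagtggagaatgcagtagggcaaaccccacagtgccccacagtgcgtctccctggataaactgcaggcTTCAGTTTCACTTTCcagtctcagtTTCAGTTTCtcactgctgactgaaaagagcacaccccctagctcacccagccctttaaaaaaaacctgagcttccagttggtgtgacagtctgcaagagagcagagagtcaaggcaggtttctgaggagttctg
Bst2: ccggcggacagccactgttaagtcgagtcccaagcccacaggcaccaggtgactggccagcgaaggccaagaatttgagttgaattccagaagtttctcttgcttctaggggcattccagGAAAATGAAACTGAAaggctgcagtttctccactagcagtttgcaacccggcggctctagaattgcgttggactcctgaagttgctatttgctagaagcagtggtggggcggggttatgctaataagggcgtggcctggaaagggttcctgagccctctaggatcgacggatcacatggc
The Ifit1 window held 3 matches, which begin at bases -109, -103 and -84, counted from 0 at the gene's start. The Bst2 window held 2, at -130 and -124, that overlap.

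**Figure D4:**
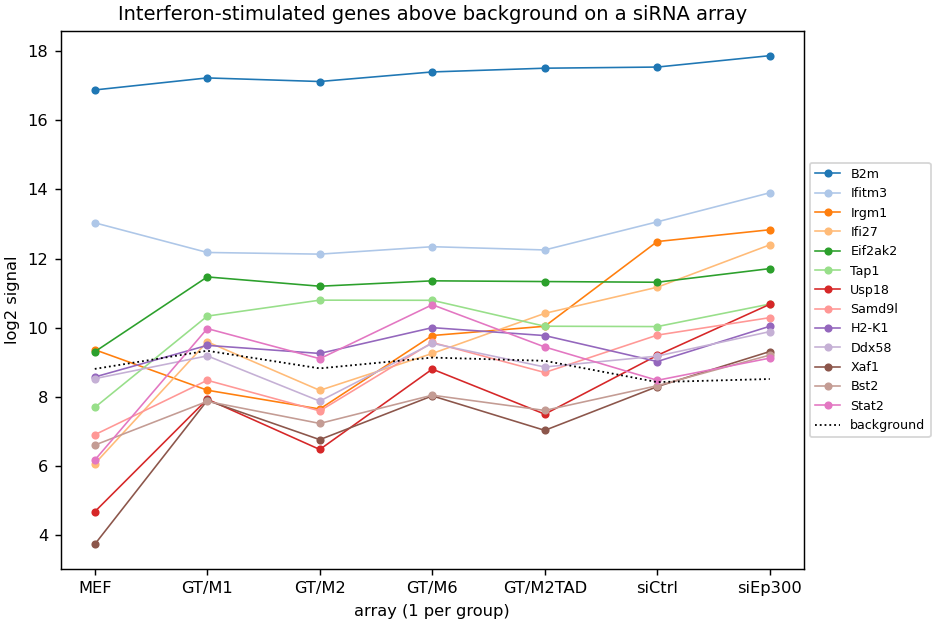
Log2 signal on the 7 arrays (horizontal axis) of the 13 interferon-stimulated genes above background on at least 1 siRNA array, with lines joining the values of each gene and a dotted line for each array's background. All 13 are higher on siEp300 than on siCtrl, and Usp18, Ifi27 and Xaf1 are higher on siCtrl than on any array without siRNA.

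Genes upstream of the interferon response differed less. Of 26 measured interferons, receptors and nucleic acid sensors, 18 had a positive difference with a median of 0.30, which became -0.01 after centring on span, and 0 were called. Tlr3, a receptor for double-stranded RNA, was 9.29 on siEp300 and 8.55 on siCtrl (difference 0.73). Ifngr2, a subunit of the interferon-gamma receptor, was 13.86 and 13.54, a difference of 0.32. The list of inflammatory cytokines and NF-kB targets had a median of 0.17 over 32 genes and -0.18 after that centring. In it, the macrophage growth factor Csf1 differed by -0.69 and the chemokine Ccl17 by 0.55.

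Genes of oxidative phosphorylation formed the other list well above the rest. They encode subunits of the respiratory chain and ATP synthase, which heart muscle needs in quantity. Of 36 measured members, 31 were above background on both arrays, 32 had a positive difference and the median was 0.57. A total of 14 were at least 1.5-fold higher and 0 lower, beside 4.25% and 0.554% of all genes, and 0 were called at 2-fold. Only genes above background can be counted so. Of the 5929 genes above it on at least 1 siRNA array, 829 were 1.5-fold higher and 108 lower. Sdha, the catalytic subunit of complex II, was 10.02 on siEp300 and 9.10 on siCtrl (difference 0.92). Ndufv2, a subunit of complex I, was 11.65 and 10.75, a difference of 0.90. Uqcrfs1 and Uqcrc1 of complex III differed by 0.81 and 0.72, Cox5a of complex IV by 0.80 and Atp5j of ATP synthase by 0.77. Ndufs1, at -0.11, and Ndufv1, at -0.04, did not share the direction.

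In these genes siCtrl lay under siEp300, and siEp300 itself was often not high among the arrays. Sdha reached 11.36 on GT/M2, 10.46 on GT/M1, 10.40 on GT/M2TAD, 10.27 on GT/M6 and 9.62 on MEF, so siCtrl at 9.10 was the lowest of the 7 and siEp300 at 10.02 lay under the other transduced arrays. Ndufv2 was 11.72 to 12.60 on the transduced arrays without siRNA, and the 11.65 of siEp300 lay just under them. Against GT/M2TAD the list's median was -0.08 on siEp300 and -0.59 on siCtrl, and against GT/M2 it was -0.70 and -1.09. Its members are short, with a median span of 7.11 kb, and after centring on span the median difference was 0.24. Ribosomal protein genes, shorter still at 3.67 kb, had 27 of 27 members above background, 23 positive and a median of 0.34. Rps14 was 14.12 and 13.43 (difference 0.69) and Rpl38 13.25 and 12.57 (difference 0.69), but after centring on span the list's median was -0.02. Core transcription and splicing genes had a median of 0.34 over 19 members and 0.05 after centring on span. Srsf3, a splicing factor, was the called member, at 10.59 and 9.52 (difference 1.08). Genes of ribosome and snoRNP assembly had a median of 0.13, or -0.13 after the centring, with Snu13 at 0.89 and Myc, a driver of ribosome production, at 11.57 and 12.16 (difference -0.59).

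**Figure D5:**
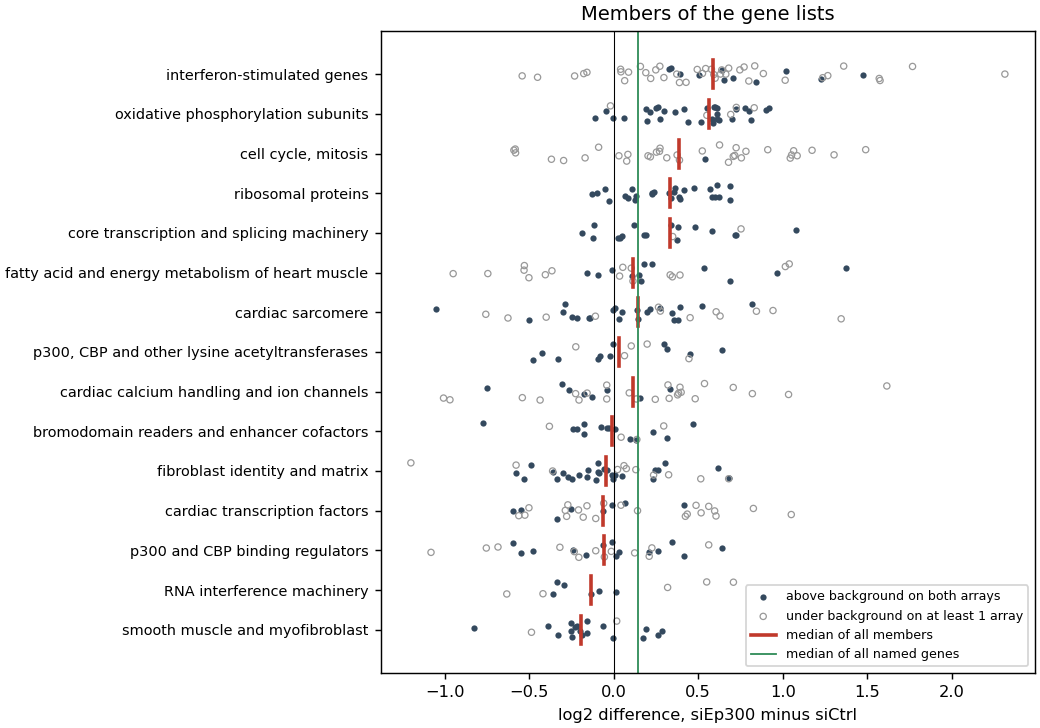
Log2 difference, siEp300 minus siCtrl, of every measured member of 15 of the 33 gene lists: filled points are above background on both arrays, open points are under it on at least 1. Red bars are list medians and the green line is the median of all genes at 0.14; the lists run from 0.58 for interferon-stimulated genes to -0.19 for smooth muscle genes.

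Mitotic genes could hardly be compared, since few of them were above background. Of 35 measured members, 2 were above background on siEp300 and 1 on siCtrl, against 33 on MEF, and the list's median signal was 5.95, 5.75 and 11.04 on those arrays. Cenpa, the centromeric histone, was 10.61 on siEp300 and 10.07 on siCtrl (difference 0.54). A total of 7 members were at least 2-fold higher under background: Knstrn by 1.49, Ube2c by 1.30, Ccna2 by 1.17, Bub1 by 1.08, Ndc80 by 1.06, Plk1 by 1.05 and Cenpf by 1.04. The list's median was 0.39, and 0.20 after centring on span. Of the 29 members with a promoter entry, 21 or 72.4% held the letters TTTGAA of the cell cycle homology region on either strand, against 17.8% of all. Cenpa, the member above background on both arrays, is shown, at chr5:30666636-30666935 on the plus strand, with its match in capitals.
Cenpa: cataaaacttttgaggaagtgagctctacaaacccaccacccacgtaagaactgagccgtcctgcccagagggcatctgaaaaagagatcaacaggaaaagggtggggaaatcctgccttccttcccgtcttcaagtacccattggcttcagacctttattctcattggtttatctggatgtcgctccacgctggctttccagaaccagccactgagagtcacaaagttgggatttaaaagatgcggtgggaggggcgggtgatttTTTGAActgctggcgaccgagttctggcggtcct
The match begins at base 16, counted the same way. S-phase genes had a median of 0.23 over 30 members, or -0.01 after centring on span, with 3 above background on both arrays. Of these the DNA clamp Pcna was 12.56 and 12.31 (difference 0.25) and the helicase subunit Mcm6 9.12 and 8.78 (difference 0.34). Under background, Gins2 differed by 1.42 and Cdc6 by -1.20.

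Sarcomere genes, the contractile machinery that reprogramming is meant to switch on, differed little between the siRNA arrays. Of 35 measured, 23 were above background on both arrays, against 6 on MEF. Their median was 0.14, the same as that of all genes, and -0.03 after centring on span, with 22 positive, 0 called higher and 1, Synpo2l, called lower. Mybpc3, myosin-binding protein C, was 10.59 on siEp300 and 9.77 on siCtrl (difference 0.82), and the atrial light chain Myl7 11.19 and 10.67 (difference 0.52). Tnnt2, cardiac troponin T, was 17.06 and 16.79 (difference 0.27), and the alpha-actinin Actn2 8.64 and 8.44 (difference 0.20). Titin (Ttn) was 10.22 and 10.72 (difference -0.50), and Ankrd1 16.70 and 17.00 (difference -0.30). Myh6, the alpha myosin heavy chain, was under background at 7.15 and 5.81, a difference of 1.34. Members of both directions were thus found, and the called member was on the lower side.

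Ion channel and calcium handling genes gave a median of 0.11 over 32 members, or -0.04 after the centring, with 8 of them above background on both arrays. Cacna1c, the pore of the L-type calcium channel, was 11.03 and 11.78 (difference -0.75). Casq2, the calcium store protein calsequestrin, was 14.35 and 14.01 (difference 0.33). Natriuretic and stress genes had a median of 0.27 over 15 members, or 0.01 after the centring, with Nppb the called one. Nppa, the natriuretic peptide ANP, was 16.91 and 16.47 (difference 0.44), against 18.52 on GT/M2TAD and 14.88 to 16.77 on the other transduced arrays without siRNA. Fatty acid and energy metabolism genes had a median of 0.11 over 28 members, or -0.13 after the centring. Pdk4, the kinase that shuts off pyruvate oxidation, was the called one, at 12.50 on siEp300 and 11.12 on siCtrl (difference 1.37), with 14.29 on GT/M2TAD and 5.99 on MEF.

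Cardiac transcription factors had a median of -0.06 over 30 members, below the all-gene median of 0.14, with 0 called. Centred on span, it was -0.13, beside the -0.07 of all genes. Mef2d was 12.26 and 12.85 (difference -0.59), beside the -0.55 of Mef2c, while Mef2a differed by -0.07. Skeletal and embryonic muscle genes had a median of -0.04 over 38 members, or -0.29 after the centring, of which 7 were above background on both arrays. Myl1 was 15.84 and 15.43 (difference 0.41) and Acta1, skeletal actin, 12.25 and 12.46 (difference -0.21).

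Smooth muscle and myofibroblast genes had the lowest median of the lists, -0.19 over 20 members, of which 5 were positive and 18 above background on both arrays. Centred on span, the median was -0.33. None was called at 2-fold, and 1 was at least 1.5-fold lower. That gene, Mylk, the kinase of smooth muscle myosin, was 9.82 on siEp300 and 10.65 on siCtrl (difference -0.83), and 4.92 to 8.57 on the other 5 arrays. Acta2, smooth muscle actin, was 19.19 and 19.58 (difference -0.39), Cald1 15.57 and 15.90 (difference -0.33) and Myh11 12.01 and 12.26 (difference -0.26). Ccn2 and Tagln went the other way, by 0.29 and 0.26. Both siRNA arrays lay above GT/M2TAD in this list, with medians of 0.96 and 0.92 for siEp300 and siCtrl. Against MEF the medians were -0.04 and 0.11, so both were near untreated fibroblasts.

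Fibroblast and matrix genes had a median of -0.05 over 38 members, or -0.22 after centring on span, with 27 above background on both arrays and 16 positive. The collagen crosslinker Lox differed by -0.58, the proteoglycan Bgn by -0.53, the mesenchymal factor Prrx1 by -0.49 and fibronectin (Fn1) by -0.36. Timp1, a protease inhibitor, was 14.60 and 13.92 (difference 0.68), and the proteoglycan Dcn 10.74 and 10.12 (difference 0.62). Col1a1 and Postn were at -0.00 and -0.01. TGF-beta ligands, receptors and targets had a median of 0.21 over 27 members and -0.01 over the 17 above background on both arrays, and -0.05 over all 27 after the centring. Tgfb1 was 12.08 and 12.50 (difference -0.41), and Skil, an inhibitor of SMAD proteins, 12.12 and 12.69 (difference -0.57).

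Genes for chromatin cofactors moved little. The 16 measured acetyltransferases had a median of 0.03, with Elp3 at 10.36 and 9.72 (difference 0.64) and Kat7 at 9.81 and 10.28 (difference -0.48), close in size to Ep300. Of the 27 regulators known to bind p300 or CBP, 11 were positive and the median was -0.06. The coactivator antagonist Cited2 was 15.38 and 15.86 (difference -0.48). Histone deacetylases and sirtuins had a median of 0.24 over 16 members, with Hdac1 at 12.80 and 12.27 (difference 0.54) and Sirt1 at 9.30 and 8.78 (difference 0.52). Bromodomain readers and enhancer cofactors had a median of -0.01 over 18 members. Med12, a subunit of the Mediator kinase module, was 9.08 and 9.85 (difference -0.77), and the chromatin remodeller Smarca2 11.61 and 11.14 (difference 0.47). The acetyltransferase and bromodomain genes are long, with median spans of 73.2 kb and 41.8 kb. After centring on span the medians were -0.03 for acetyltransferases, -0.21 for p300 and CBP binders, 0.02 for deacetylases and -0.10 for bromodomain genes and cofactors. RNA interference genes, through which an siRNA acts, had a median of -0.14 over 11 members, or -0.19 after the centring, with Dicer1 at -0.34 and Xpo5 at -0.36.

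Stress programmes were near the all-gene median. The p53 list, which holds Cdkn2a besides targets of p53, had a median of 0.20 over 24 members and 2 called higher, beside 0.6% of all genes. Of the 24, 19 were above background on at least 1 siRNA array. Of all 5929 genes so placed, 117 were called higher. Gadd45a, a growth-arrest gene, was 8.73 and 7.64 (difference 1.09), with siCtrl under background. Cdkn2a, a locus of cell cycle inhibitors, was 10.24 and 9.15 (difference 1.09). Hypoxia targets had a median of 0.08, with Ldha at 15.46 and 14.79 (difference 0.67) and Slc2a1 at 0.32. Immediate early and CREB targets had 0.07, with Nr4a1 at 0.58 and Fos at -0.56. The integrated stress and unfolded protein responses had 0.09, with Creld2 at 0.75 and Ddit3 at 0.54, whose other probe set gave 0.56. Sterol and lipid synthesis genes had 0.25 over 17 members, with Fdft1 at 0.60 and Acaca at -0.47. After centring on span the medians were -0.04 for the p53 list, -0.09 for hypoxia, -0.27 for immediate early and CREB targets, -0.14 for the stress responses and 0.05 for sterol synthesis.

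Markers of other cell types were mostly under background on both arrays. None of 19 macrophage markers and none of 17 adipocyte and chondrocyte markers was above it, with medians of -0.13 and -0.03. Of 17 endothelial markers 2 were, Flt1 at -0.13 and Eng at 0.07, and the list's median was 0.23. Of 17 epithelial and mesothelial markers 2 were, Krt18 at 0.89 (9.46 and 8.57) and Msln at 0.19, with a median of 0.33. Of 18 neural markers 1 was, Ncam1 at -0.10, with a median of 0.07. After centring on span the medians were -0.45 for macrophage, -0.24 for adipocyte and chondrocyte, -0.03 for endothelial, 0.02 for epithelial and -0.06 for neural markers. The span curve was fitted on genes above background on at least 1 siRNA array, which include none of the macrophage, adipocyte and chondrocyte markers. Over the 33 lists, 16 medians lay above that of all genes and 17 below it.

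Genes that reprogramming changes were picked on arrays outside the siRNA pair. A total of 966 genes, 4.95% of those tested, were at least 2-fold higher than MEF on GT/M2TAD and all the isoform arrays, and 801, 4.11%, were at least 2-fold lower. Relative to MEF, the higher genes had a median of 2.00 on siEp300 and 1.77 on siCtrl. The lower genes had -2.12 and -2.34. MEF helped choose these genes and is the reference here, so these 4 medians are a description. Between the pair, the median difference was 0.20 for the higher genes and 0.15 for the lower, beside 0.14 for all genes, and after centring on span 0.04 and -0.06. Of the 966, 17 were called higher and 1 lower, and of the 801, 15 and 1, beside 0.6% of all genes called higher and 0.0308% lower. On both siRNA arrays, 922 of the 966 and 445 of the 801 were above background. A call requires this only on the array where the gene was higher. Of the 5433 genes above background on both siRNA arrays, 55 were called higher and 3 lower. Of the 5929 genes above it on at least 1 siRNA array, 117 were called higher and 6 lower. The calls among the 966 and 801 were not limited to genes above background on both arrays.

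Among the 966, the lowest differences were those of Synpo2l, Thsd7a, Ptprq at -0.76 and the potassium channel gene Kcnc4 at -0.68. The highest were Pdk4 at 1.37, Acaa2, an enzyme of fatty acid oxidation, at 1.25, the trafficking gene Vps52 at 1.22 and Uqcr10, a subunit of complex III, whose signal was 10.71 on siEp300 and 9.50 on siCtrl. Acaa2 was 12.88 on siEp300 and 11.63 on siCtrl, against 14.98 to 16.20 on the transduced arrays without siRNA and 11.36 on MEF. For Acaa2 siCtrl was near MEF and siEp300 between the groups. Among the 801, Mid1, Jag1, Ptprn and the growth factor Igf2, at -0.77, were lowest. Igf2 was 16.80 and 17.57, with 19.40 on MEF and 15.14 to 15.97 on the transduced arrays without siRNA. The histone genes H4c11, at 1.36, and H4c12, at 1.35, were highest, and as near-identical copies they may share transcripts.

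Genes that set GT/M2TAD apart from GT/M2 were described in the same way, since both names appear in the labels of the pair. A total of 384 genes, 1.97%, were at least 2-fold higher on GT/M2TAD than on GT/M2, and 362, 1.86%, were lower. Relative to GT/M2, the higher genes had a median of 1.45 on siEp300 and 1.41 on siCtrl, and the lower genes -1.62 and -1.89. Since GT/M2 chose these genes and is the reference here, these 4 medians are a description with no support to a label. Between the pair, which did not choose them, the higher genes had a median of 0.09, below the 0.14 of all genes. The lower genes had 0.34, with 16 called higher and 0 lower, beside 0.6% and 0.0308% of all genes. Of these 362, 205 were above background on both siRNA arrays, but the 16 calls were not limited to those 205. Of the 5433 genes above background on both, 55 were called higher and 3 lower. Of the 5929 genes above it on at least 1, 117 were called higher and 6 lower. The median spans of the higher and lower genes were 33.0 kb and 16.6 kb. After centring on span their median differences were -0.07 and 0.10. Among the genes higher on GT/M2TAD, Ereg, a growth factor, was 11.63 on siEp300 and 12.44 on siCtrl (difference -0.81), and Ube2l6, the enzyme that conjugates ISG15, 12.16 and 11.07 (difference 1.08).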

How the data were processed

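Each of the 7 arrays gave 1 column of log2 values. Per the submitters' processing notes the authors used Affymetrix Expression Console 1.4. The method was SST-RMA, per the series' design text, with settings not given in the sources used here. The deposited log2 values were used as they are. Of 28846 probe sets, 19572 had 1 gene symbol, and all 19572 matched the RefSeq GRCm38.p6 gene table by Entrez identifier. They covered 19505 genes; for the 55 with several sets, the one brightest on average was taken. The other 9274 did not have a single symbol and entered no gene count. They include the 5222 negative-control and 1324 positive-control probes. With no build of the array given, the RefSeq table served only for names, genomic spans and promoters.

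With 1 array per group, genes were counted by size: a log2 difference of at least 1 (0.585 for 1.5-fold) and a value above the 95th percentile of negative-control probes on the higher array. Genes were named by rule: Ep300, Crebbp, the factors and Myod1; the 15 highest and 15 lowest genes above background, without predicted genes; and, in each list, members at least 2-fold apart or, failing these, the 2 largest. Other members named were chosen after their values were seen. The members and the 33 lists (823 measured genes) were chosen with earlier results of these data known. Alternatives changed the scaling (lowess span 0.3), the floor, the fold, the probe set rule and the comparator. No replicates exist to leave out. Counting was tested on simulated data. Tools were Python 3.11.15, numpy 2.4.6, pandas 2.3.3, statsmodels 0.14.6 and matplotlib 3.10.9. Precision is limited by the number of arrays.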

Additional observations from a re-analysis of the deposited data

Results flagged for a closer look

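Probe sets outside the named genes also differed between the arrays. Of 2615 unnamed transcript sets, 9 were at least 2-fold higher on siEp300 and above background, and 4 were lower. Of 1324 positive-control probes, 43 were at least 2-fold higher and 10 lower, with single differences from -8.11 to 10.45. Both counts drew attention because they lie in data the gene comparison does not use. The 5222 negative-control probes, measured the same way, gave 89 higher and 80 lower.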

How the results depend on the processing

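No paired analysis was possible because each group is 1 array, and for the same reason no replicate could be left out. The counts of called genes moved with nearly every choice. Against 117 higher and 6 lower as reported, median centring gave 55 and 15, centring on genes above background 50 and 16, level-dependent centring 37 and 20 and quantile normalization 33 and 19. Span-dependent centring, which was chosen after seeing the data, gave 33 and 14. A floor at the array median gave 377 and 76, no floor 788 and 290, and a floor on both arrays 55 and 3. A 1.5-fold threshold gave 829 and 108 and a 3-fold threshold 7 and 1. With GT/M2TAD in place of siCtrl the counts were 403 and 359, and with GT/M2 792 and 790. The mean of a gene's probe sets gave 117 and 6. The Ep300 difference lay between -0.62 and -0.42 under the 8 alternatives run for it. Removing the positive shift could only lower it, and the mean of probe sets returned the same value. With GT/M2TAD and GT/M2 in place of siCtrl it was -0.51 and -0.42, on the same siEp300 array.

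The median of interferon-stimulated genes became 0.34 with span-dependent centring, 0.94 with GT/M2TAD and 0.90 with GT/M2 as the comparator. That of oxidative phosphorylation genes became 0.24, and turned to -0.078 and -0.70 against those comparators. Ribosomal proteins turned to -0.021 with span-dependent centring and to -0.69 against GT/M2. Mitotic genes turned to -0.40 and -2.39 against GT/M2TAD and GT/M2, and core transcription and splicing genes to -0.083 and -0.76. Smooth muscle genes moved from -0.19 to 0.96 and 2.52 against the same comparators. The cause of these changes was not tested. Signal over background limits single genes, since 13576 of 19505 genes were above background on neither array.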

Other observations

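Gene families taken by the start of their symbols, chosen after the highest genes were seen, extend the account of the gene lists. Mitochondrial ribosomal proteins, which build the mitochondrion's own translation machinery, had a median difference of 0.45 over 76 genes, 70 of them positive and 3 called higher, beside 0.6% of all genes. Of the 76, 48 were above background on at least 1 siRNA array. Of all 5929 genes so placed, 117 were called higher. Subunits of complex I (Nduf genes) had 0.54 over 37 genes with 3 called, complex III (Uqcr genes) 0.67 over 8, ATP synthase (Atp5 genes) 0.47 with 17 of 17 positive, and cytochrome c oxidase 0.32 over 18. Against GT/M2TAD the mitochondrial ribosomal proteins were at 0.12 on siEp300 and -0.36 on siCtrl, and complex I at 0.06 and -0.40. After centring on span the medians were 0.17 for mitochondrial ribosomal proteins, 0.27 for complex I, 0.39 for complex III, 0.16 for ATP synthase and -0.08 for cytochrome c oxidase, beside -0.07 for all genes.

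Cytosolic ribosomal proteins had 0.36 over 56 genes, proteasome subunits 0.36 over 39, Sm and LSm proteins of the spliceosome 0.33 over 24 and mitochondrial import genes 0.30 over 25. Clustered histone genes, many of them near-identical copies, had 0.50 over 54 genes with 7 called higher, beside 0.6% of all genes. Of the 54, 27 were above background on at least 1 siRNA array. Of all 5929 genes so placed, 117 were called higher. Against GT/M2TAD the histone genes were at -0.47 on siEp300 and -1.07 on siCtrl. Zinc finger genes had 0.19 over 358 genes and kinesins 0.17 over 35. Collagens had 0.10 over 42, lysine methyltransferases and demethylases 0.04 over 25, and laminins and integrins -0.01 over 32. The median of all named genes was 0.14. After centring on span the medians were 0.005 for cytosolic ribosomal proteins, 0.07 for the proteasome, 0.04 for Sm and LSm proteins, 0.06 for mitochondrial import, -0.06 for histones and -0.12 for laminins and integrins. They were 0.00 for zinc finger genes, -0.00 for kinesins, -0.01 for collagens and -0.06 for the methyltransferases and demethylases.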
